A study of Mus musculus with 12 samples.

Results

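The p53 pathway was examined in bone marrow-derived macrophages (BMDMs) through 10 genes: Trp53, which encodes p53, and 9 genes that p53 is known to activate, namely Mdm2, Cdkn1a, Trp53inp1, Plk2, Ccng1, Bbc3, Gadd45a, Zmat3 and Phlda3. The genes were chosen as members of the pathway with earlier results of these data known, and each was read from the probe set that names it alone and has the highest mean signal. The array annotation gave no such probe set for Trp53, which was therefore not analysed here. The other 9 genes had 16 probe sets, out of 45037 probe sets and 18193 genes tested on the array.

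BMDMs were grown from marrow of Nos2-/- mice (B6.129P2-Nos2tm1Lau/J, which lack inducible nitric oxide synthase) and of wild type (WT) C57BL/6 mice, both 6 to 10 weeks old and matched for age and sex, in medium with M-CSF. To ask how loss of Nos2 changes the response to stimulation, 4 groups of 3 biological replicates were hybridised to Affymetrix mouse expression arrays: Nos2-/- BMDMs stimulated for 8 h with 100 ng/mL LPS and 50 ng/mL IFNγ, WT BMDMs stimulated in the same way, and untreated Nos2-/- and untreated WT BMDMs. The labels place the untreated cells before stimulation, while the treatment protocol lists PBS as vehicle beside the 8 h of stimulation. Whether the untreated cells were taken at the start or after the same time is thus not settled, which bears on every value of stimulated over untreated BMDMs. The deficiency is germline, so it was present throughout the differentiation of the macrophages as well as during stimulation.

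p53 is a transcription factor that is held at a low level by the ubiquitin ligase Mdm2 and accumulates after DNA damage and other stress. It then binds a pair of 10-base repeats near its target genes and raises transcription of genes that halt the cell cycle, repair DNA or start apoptosis, and of Mdm2 itself, which closes a feedback loop. Nitric oxide made by activated macrophages is a known inducer of p53 in these cells. Levels below are log2 RMA signals, where a difference of 1 is a change of 2-fold in signal, and a gene was called changed at a Benjamini-Hochberg adjusted p under 0.05 over all 18193 genes in limma.

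The arrays were alike within groups, with correlations of 0.996 to 0.998 and array medians of 5.14 to 5.21. All 8 macrophage markers were above the median probe set, Mertk being lowest (79.2 percentile of mean signal). Their array medians were 12.8 in the stimulated groups and 13.0 to 13.1 in the untreated groups. The 7 measured neutrophil markers were also above the median probe set, S100a8 being highest (95.8 percentile). Array medians of the neutrophil markers were 8.03 to 8.66 in stimulated Nos2-/- and 8.03 to 8.40 in stimulated WT BMDMs. They were 7.84 to 8.51 in untreated Nos2-/- and 7.67 to 8.27 in untreated WT BMDMs, and their part in any result was not tested. Of 5 measured dendritic cell markers, 4 were above the median probe set (Xcr1 was not), and no count was made within a group. Array medians of these markers were 5.55 to 5.78 in stimulated Nos2-/- and 5.64 to 5.75 in stimulated WT BMDMs. They were 5.17 to 5.36 in untreated Nos2-/- and 5.29 to 5.43 in untreated WT BMDMs. This list was thus higher with stimulation without overlap, and its part in the responses was not tested. None of the 6 fibroblast markers exceeded the median probe set. Of 4 measured markers each, 1 did among T and NK cell (Cd3e), B cell (Pax5), and erythroid and mast cell markers (Klf1). The targeted gene, Nos2, read 7.74, 7.45 and 7.88 in stimulated Nos2-/- BMDMs, against 9.73, 9.81 and 9.64 in stimulated WT BMDMs, and 5.15 to 5.41 against 5.40 to 5.65 in untreated cells. Where its probe set lies relative to the deleted part of the gene is not given in the sources used here, so these values do not check the genotype labels. In bulk RNA, fewer cells expressing a gene and less RNA per cell cannot be told apart.

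The 300 bases around each start site (250 before and 50 after, from RefSeq on GRCm38.p6) were compared with the p53 consensus. The consensus is a pair of 10-base repeats of purines, a C, a pair of A or T bases, a G and pyrimidines, here with no spacer between the repeats; it reads the same on both strands. Of the measured genes, 7 had such a window, 10 windows in all. The Ccng1 window and 1 of the 2 Cdkn1a windows held a stretch that matched 19 of 20 positions, a score reached in 29 of 32851 windows of the genome (0.0883%). The Gadd45a window and 1 of the 3 Bbc3 windows matched 17 of 20, reached in 6.29% of windows. Mdm2, Plk2, Phlda3 and the other Cdkn1a window matched 15 of 20, reached in 76.6%. The sequences before these 4 start sites are shown because their genes respond to stimulation in opposite directions, Cdkn1a, Gadd45a and Mdm2 upwards and Ccng1 downwards; capitals mark the best-matching 20 bases.
Cdkn1a, chr17:29090729-29090978, plus strand: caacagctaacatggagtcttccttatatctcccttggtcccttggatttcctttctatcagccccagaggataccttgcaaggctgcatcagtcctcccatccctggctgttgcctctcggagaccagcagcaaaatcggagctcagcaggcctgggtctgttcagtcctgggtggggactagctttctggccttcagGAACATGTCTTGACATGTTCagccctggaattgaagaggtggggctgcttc
Ccng1, chr11:40755442-40755501, minus strand: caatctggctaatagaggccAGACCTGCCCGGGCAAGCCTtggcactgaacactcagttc
Gadd45a, chr6:67037612-67037657, minus strand: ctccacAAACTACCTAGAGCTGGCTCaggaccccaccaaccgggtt
Mdm2, chr10:117710905-117710964, minus strand: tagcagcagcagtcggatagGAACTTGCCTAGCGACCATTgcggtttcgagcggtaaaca
A match describes the letters and does not show that p53 binds there. A lower score says only that a closer match is not in this window.

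Stimulation moved p53 targets in both directions. In Nos2-/- BMDMs 3 of the 9 genes rose (Mdm2, Cdkn1a and Gadd45a) and 5 fell (Trp53inp1, Plk2, Ccng1, Zmat3 and Phlda3), and in WT BMDMs the same 3 rose and 6 fell, the added gene being Bbc3, which lay near the threshold in Nos2-/- BMDMs (adjusted p = 0.0739). Most of the transcriptome moved as well: 26.3% of all genes were called higher and 28.2% lower in Nos2-/- BMDMs, and 29.6% higher and 28.4% lower in WT BMDMs. The median log2 fold change of the 9 genes was -0.79 in Nos2-/- BMDMs and -0.39 in WT BMDMs, against 0.05 and 0.07 over all genes. Between genotypes, the largest differences were those of Trp53inp1 and Plk2. After stimulation these were lower in Nos2-/- BMDMs by 2.20- and 2.06-fold. Cdkn1a was lower by 1.35-fold and Ccng1 by 1.21-fold, while Gadd45a was higher by 1.28-fold. The calls of Cdkn1a, Ccng1 and Gadd45a were each lost in some alternative fits. Over all genes, 1.03% were called higher and 1.91% lower between these groups. Cdkn1a already differed by -0.29 in untreated BMDMs, which was not called.

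**Figure D1:**
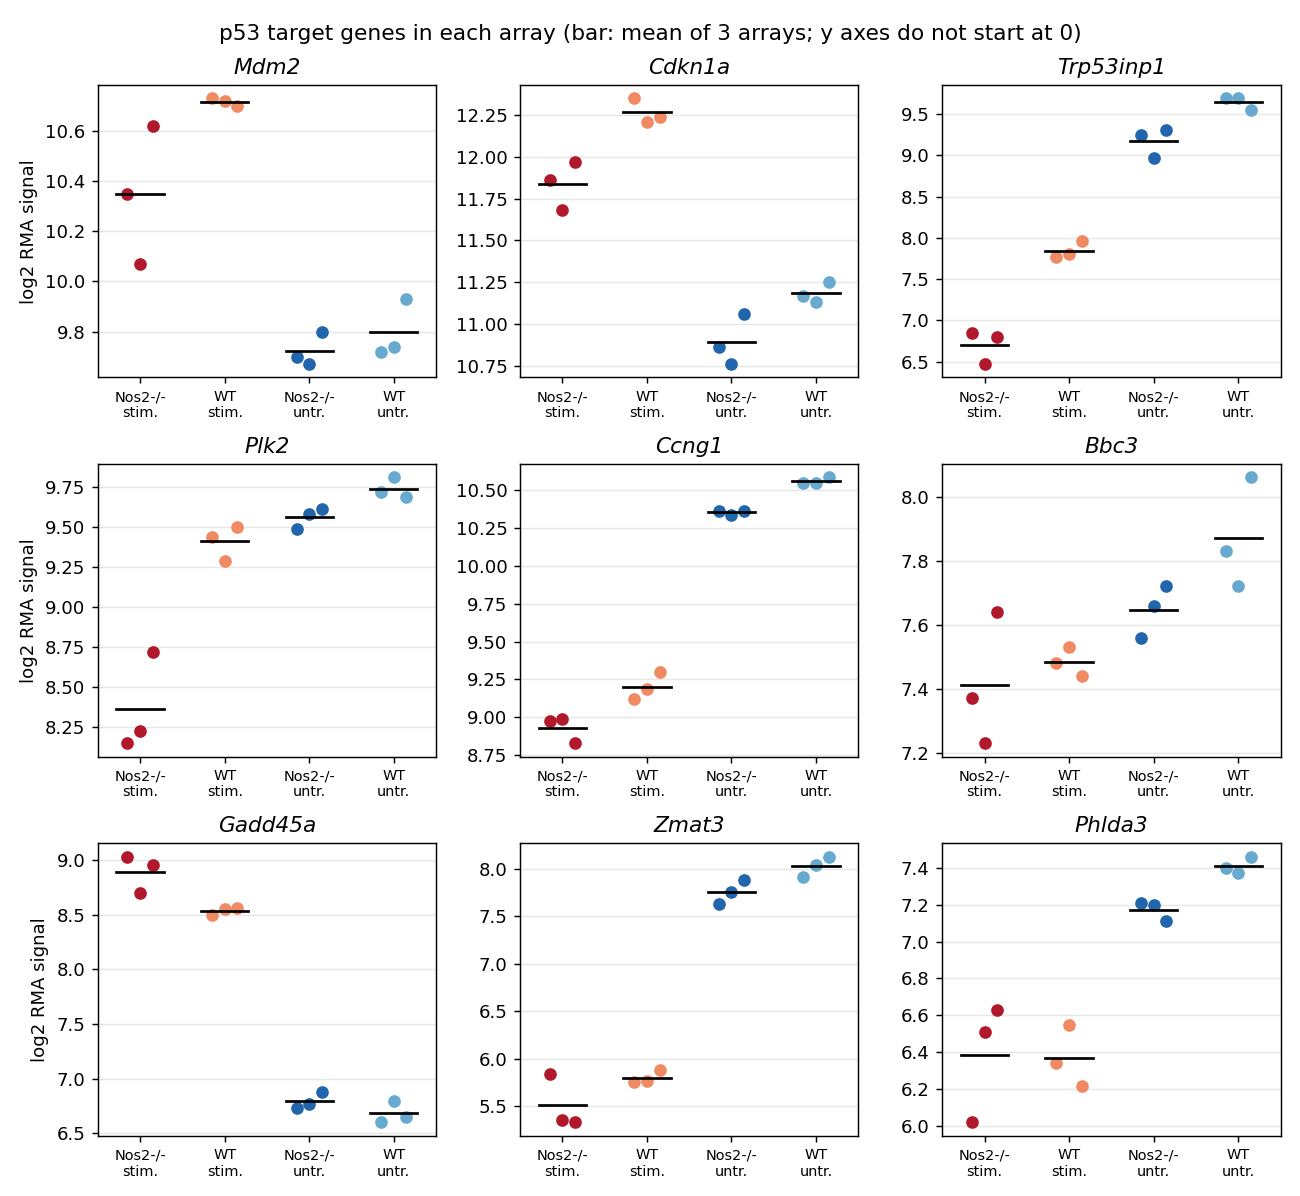
Log2 RMA signal (y axes, 1 scale per gene, not starting at 0) of the 9 p53 targets in each of the 12 arrays (points), with the mean of the 3 arrays of a group (bar). Stimulated Nos2-/- arrays lie below stimulated WT arrays for Mdm2, Cdkn1a, Trp53inp1, Plk2 and Ccng1, and above them for Gadd45a.

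Mdm2, the ligase that marks p53 for degradation, was read from probe set 1427718_a_at. It measured 10.35, 10.07 and 10.62 in stimulated Nos2-/- BMDMs, against 10.73, 10.72 and 10.70 in stimulated WT BMDMs. Untreated Nos2-/- BMDMs had 9.70, 9.67 and 9.80, against 9.72, 9.74 and 9.93 in untreated WT BMDMs. The 3 stimulated WT arrays were nearly equal, while the stimulated Nos2-/- arrays were spread widely and all lay below them; the untreated groups overlapped. Stimulation raised Mdm2 by 0.62 in Nos2-/- (SE 0.11, adjusted p = 0.00022) and by 0.92 in WT BMDMs (SE 0.11, adjusted p = 5.5e-06), that is 1.54- and 1.89-fold. The genotypes differed by -0.37 after stimulation (95% confidence interval -0.61 to -0.13), which did not pass the threshold (adjusted p = 0.104). It did pass without stimulated Nos2-/- replicate 3 (-0.51, adjusted p = 0.0123) and, with all arrays, when the variance was fitted with an intensity trend (adjusted p = 0.0341).

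Cdkn1a encodes p21, the inhibitor of cyclin-dependent kinases through which p53 arrests the cell cycle. Probe set 1421679_a_at measured 11.86, 11.68 and 11.97 in stimulated Nos2-/- BMDMs, against 12.35, 12.21 and 12.24 in stimulated WT BMDMs. In untreated BMDMs it measured 10.86, 10.76 and 11.06 in Nos2-/-, against 11.17, 11.13 and 11.25 in WT. In this probe set every Nos2-/- array was below every WT array of the same treatment. Cdkn1a rose by 0.94 in Nos2-/- (SE 0.09, adjusted p = 4.87e-07) and by 1.08 in WT BMDMs (SE 0.09, adjusted p = 1.19e-07). It was lower in Nos2-/- after stimulation, by -0.43 (95% confidence interval -0.62 to -0.24, adjusted p = 0.0177). The difference between untreated groups was -0.29 and did not pass the threshold over all genes, and the responses of the genotypes differed by -0.14 (95% confidence interval -0.42 to 0.13). The call after stimulation was lost without stimulated Nos2-/- replicate 2 (-0.35, adjusted p = 0.0601) and without stimulated WT replicate 1 (-0.39, adjusted p = 0.0717).

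Trp53inp1, a p53-induced nuclear protein that promotes cell death and autophagy, was the member with the largest genotype difference. Probe set 1416926_at measured 6.85, 6.47 and 6.80 in stimulated Nos2-/- BMDMs, against 7.77, 7.80 and 7.96 in stimulated WT BMDMs. Untreated BMDMs had 9.24, 8.97 and 9.31 in Nos2-/-, against 9.69, 9.69 and 9.55 in WT. The 4 groups formed 4 separate steps, with stimulated Nos2-/- BMDMs lowest and untreated WT BMDMs highest. Stimulation lowered Trp53inp1 5.53-fold in Nos2-/- BMDMs (log2 fold change -2.47, SE 0.11, adjusted p = 1.71e-10) and 3.48-fold in WT BMDMs (-1.80, SE 0.11, adjusted p = 4.93e-09). After stimulation it was lower in Nos2-/- by -1.13 (95% confidence interval -1.37 to -0.90, adjusted p = 4.41e-05). The untreated difference of -0.47 (95% confidence interval -0.70 to -0.23) did not pass the threshold over all genes (adjusted p = 0.782). The responses differed by -0.67 (SE 0.16), also short of the threshold (adjusted p = 0.0689).

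Plk2, a polo-like kinase that acts in the cell cycle and in stress checkpoints, was the only member whose response to stimulation was called different between the genotypes. Probe set 1427005_at measured 8.15, 8.23 and 8.72 in stimulated Nos2-/- BMDMs, against 9.44, 9.29 and 9.50 in stimulated WT BMDMs. Untreated BMDMs had 9.49, 9.58 and 9.61 in Nos2-/-, against 9.72, 9.81 and 9.69 in WT. The 3 stimulated Nos2-/- arrays stood below all 9 other arrays. Plk2 fell 2.29-fold in Nos2-/- BMDMs (log2 fold change -1.19, SE 0.12, adjusted p = 8.04e-07) and 1.26-fold in WT BMDMs (-0.33, SE 0.12, adjusted p = 0.0293). After stimulation Nos2-/- BMDMs were lower by -1.04 (95% confidence interval -1.30 to -0.78, adjusted p = 0.000193), whereas untreated BMDMs differed by -0.18 (95% confidence interval -0.43 to 0.08). The difference between the responses was -0.86 (95% confidence interval -1.23 to -0.50, adjusted p = 0.028). That last call was sensitive, since leaving out any 1 of 10 of the 12 arrays moved its adjusted p to between 0.0515 and 0.082. The fall in WT BMDMs was lost without stimulated WT replicate 2 (adjusted p = 0.107), untreated WT replicate 1 (0.0558) or untreated WT replicate 2 (0.0888). It was also lost without moderation (0.0746), with quantile normalization (0.0625) and with the mean of all probe sets (-0.18, 0.0945).

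**Figure D2:**
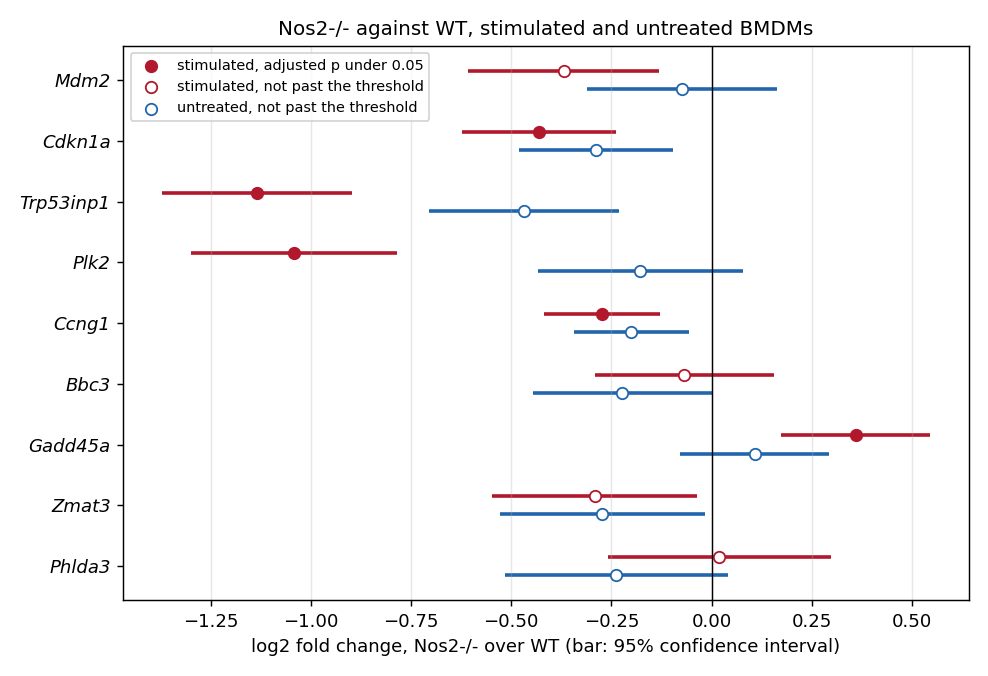
Log2 fold change of each p53 target in Nos2-/- over WT BMDMs (x axis), stimulated (red) and untreated (blue), with 95% confidence intervals (lines); filled points passed an adjusted p of 0.05 over all genes. Trp53inp1 (-1.13) and Plk2 (-1.04) are the largest differences, and none of the untreated differences passed.

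Gadd45a, a growth arrest and DNA damage protein, was the member with the largest rise and the only one called higher in Nos2-/- BMDMs after stimulation. Probe set 1449519_at measured 9.03, 8.70 and 8.95 in stimulated Nos2-/- BMDMs, against 8.50, 8.55 and 8.56 in stimulated WT BMDMs. Untreated BMDMs had 6.73, 6.77 and 6.88 in Nos2-/-, against 6.60, 6.80 and 6.65 in WT. The stimulated groups did not overlap and the untreated groups did. Stimulation raised Gadd45a 4.30-fold in Nos2-/- BMDMs (log2 fold change 2.10, SE 0.09, adjusted p = 7.16e-11) and 3.61-fold in WT BMDMs (1.85, SE 0.09, adjusted p = 2.95e-10). It was higher in Nos2-/- after stimulation by 0.36 (95% confidence interval 0.17 to 0.55, adjusted p = 0.0394). That call was made without only 3 of the 12 single arrays, namely stimulated Nos2-/- replicate 2, untreated Nos2-/- replicate 3 and untreated WT replicate 2. Leaving out any of the other 9 gave differences of 0.29 to 0.37 and adjusted p of 0.0541 to 0.131.

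Ccng1, which encodes cyclin G1, a p53 target that recruits a phosphatase to Mdm2, fell with stimulation in both genotypes; its window holds the 19 of 20 match shown above. Probe set 1420827_a_at measured 8.98, 8.99 and 8.83 in stimulated Nos2-/- BMDMs, against 9.12, 9.19 and 9.30 in stimulated WT BMDMs. Untreated BMDMs had 10.36, 10.33 and 10.36 in Nos2-/-, against 10.54, 10.54 and 10.58 in WT. Nos2-/- arrays were below WT arrays in both treatments, by small amounts with little spread. Ccng1 fell 2.67-fold in Nos2-/- BMDMs (log2 fold change -1.42, SE 0.07, adjusted p = 3e-10) and 2.54-fold in WT BMDMs (-1.35, SE 0.07, adjusted p = 5.8e-10). The stimulated genotypes differed by -0.27 (95% confidence interval -0.42 to -0.13, adjusted p = 0.0446). This call held without stimulated WT replicate 1 and was lost without any 1 of the other 11 arrays, with differences of -0.30 to -0.22 and adjusted p of 0.0522 to 0.151. Ccng1 was the only measured member on chromosome 11, the chromosome that carries Nos2, and lies 38.2 Mb from it.

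Zmat3, an RNA-binding zinc finger protein, fell most in WT BMDMs and by nearly the same amount in both genotypes. Probe set 1449353_at measured 5.84, 5.36 and 5.33 in stimulated Nos2-/- BMDMs, against 5.76, 5.77 and 5.88 in stimulated WT BMDMs. Untreated BMDMs had 7.63, 7.76 and 7.88 in Nos2-/-, against 7.92, 8.04 and 8.13 in WT. The stimulated groups overlapped through 1 Nos2-/- array, and the untreated groups did not. Stimulated signals were close above the array medians of 5.14 to 5.21, and whether a floor limited the fall was not tested. The log2 fold change with stimulation was -2.24 in Nos2-/- (SE 0.12, adjusted p = 9.55e-10) and -2.23 in WT BMDMs (SE 0.12, adjusted p = 1.18e-09), with a difference between responses of -0.02 (95% confidence interval -0.38 to 0.34). The genotype difference after stimulation, -0.29, passed the threshold only without stimulated Nos2-/- replicate 1 (-0.46, adjusted p = 0.0155; adjusted p = 0.258 with all arrays).

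Phlda3, a repressor of Akt signalling, fell in both genotypes and Bbc3, the pro-apoptotic BH3 protein PUMA, in WT BMDMs, and neither was called different between genotypes. Phlda3 probe set 1449002_at measured 6.02, 6.51 and 6.63 in stimulated Nos2-/- BMDMs and 6.34, 6.55 and 6.22 in stimulated WT BMDMs, against 7.21, 7.20 and 7.11 in untreated Nos2-/- and 7.40, 7.37 and 7.46 in untreated WT BMDMs. It fell by 0.79 in Nos2-/- (adjusted p = 0.000115) and by 1.04 in WT BMDMs (adjusted p = 7.82e-06) on the log2 scale, and the stimulated groups differed by 0.02 (95% confidence interval -0.26 to 0.30). For Bbc3, probe set 1423315_at measured 7.37, 7.23 and 7.64 in stimulated Nos2-/- BMDMs and 7.48, 7.53 and 7.44 in stimulated WT BMDMs, against 7.56, 7.66 and 7.72 in untreated Nos2-/- and 7.83, 7.72 and 8.06 in untreated WT BMDMs. All 4 groups of Bbc3 lay within a narrow range, and only the WT groups were separate between treatments. Bbc3 fell by 0.39 in WT BMDMs (SE 0.10, adjusted p = 0.00559), a call lost with quantile normalization (-0.18, adjusted p = 0.194), and its log2 fold change in Nos2-/- BMDMs was -0.23 (SE 0.10, adjusted p = 0.0739). The Nos2-/- value passed without stimulated Nos2-/- replicate 3 (-0.34, adjusted p = 0.00939), with median centring (adjusted p = 0.0493) and without dim features (0.0497), and the 2 responses differed by 0.15 (95% confidence interval -0.16 to 0.47).

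**Figure D3:**
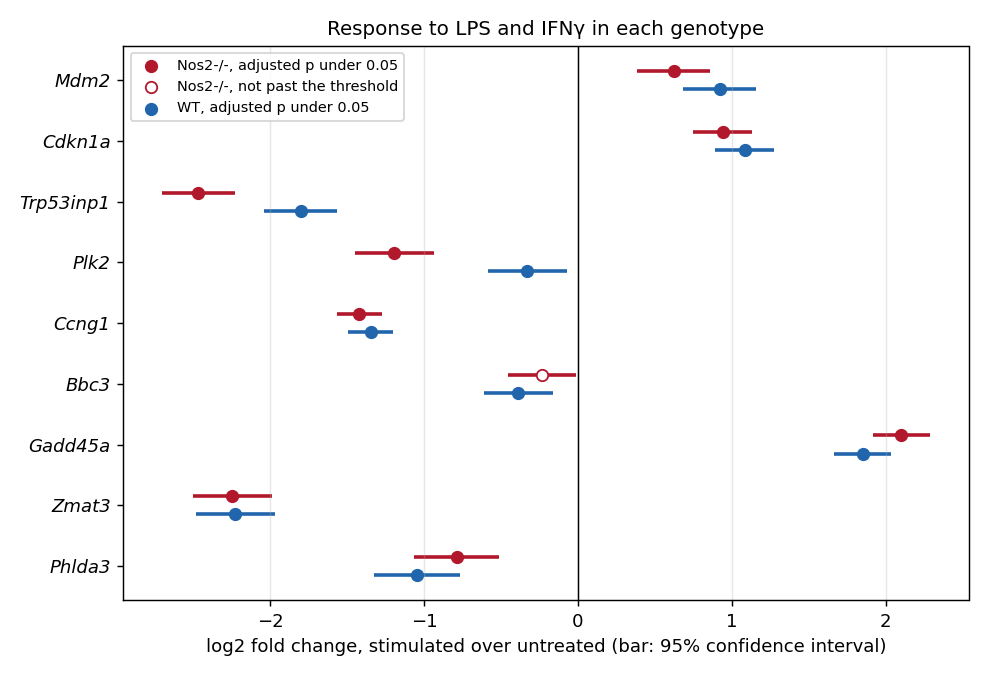
Log2 fold change of each p53 target with stimulation (x axis, stimulated over untreated) in Nos2-/- (red) and WT BMDMs (blue), with 95% confidence intervals (lines); the open point, Bbc3 in Nos2-/-, did not pass an adjusted p of 0.05. Responses run from -2.47 for Trp53inp1 to 2.10 for Gadd45a, both in Nos2-/- BMDMs, and the intervals of the genotypes are apart for Trp53inp1 and Plk2. The limma test of the difference between responses called Plk2 (adjusted p = 0.028) and not Trp53inp1 (adjusted p = 0.0689).

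Counted together, 1 of the 9 p53 targets was called higher (Gadd45a) and 4 lower (Cdkn1a, Trp53inp1, Plk2 and Ccng1) in stimulated Nos2-/- against stimulated WT BMDMs, where 1.03% of all genes were called higher and 1.91% lower. Without overlap between the groups in the probe sets used, 1 gene was higher and 5 were lower, the fifth being Mdm2, against 8.21% and 8.89% of all genes. Mdm2 and Ccng1 did overlap in another bright probe set. Of 23 alternative fits, all called Trp53inp1 and Plk2 lower between stimulated genotypes, 17 called Cdkn1a and 5 Ccng1 lower, 9 called Gadd45a higher, and 10 of 22 called the difference between the responses of Plk2. The median difference of the 9 genes was -0.29, against -0.01 over all genes. In untreated BMDMs none of the 9 was called by limma in either direction, as in each of the 23 alternative fits, and only 0.0055% of genes were called higher and 0.0055% lower. At an unadjusted p under 0.05, 4 were lower (Cdkn1a, Trp53inp1, Ccng1 and Zmat3) and 0 higher, against 2.05% and 1.95% of all genes. The untreated groups did not overlap for 7 of the 9 genes, each lower in Nos2-/- BMDMs (0 higher; 6.4% of all genes were lower and 6.24% higher in this way), with Bbc3 meeting at 7.72 when rounded. Cdkn1a did overlap in its second bright probe set. The untreated median was -0.22, against 0.00 over all genes. For the difference between responses, 1 gene (Plk2) was called lower and 0 higher, where 0.676% and 0.302% of all genes were called, with 0 higher and 2 lower at an unadjusted p under 0.05 (4.77% and 5.26% of all genes). These p-values measure the spread between the arrays, which are labelled biological replicates; whether each came from a mouse of its own is not stated.

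Several genes had more than 1 probe set, and bright probe sets of a gene moved in the same direction. Mdm2 was also read by 1423605_a_at, with -0.25 between stimulated genotypes (adjusted p = 0.252 over all probe sets), where the stimulated groups overlapped. It gave 0.55 and 0.68 with stimulation in Nos2-/- and WT BMDMs. The second Cdkn1a probe set, 1424638_at, gave -0.39 between stimulated genotypes (adjusted p = 0.0752) and rises of 1.16 in Nos2-/- and 1.35 in WT BMDMs. Its untreated groups overlapped. The other Ccng1 probe sets gave -0.15 (1450016_at, adjusted p = 0.506) and -0.23 (1450017_at, adjusted p = 0.180) between stimulated genotypes. The stimulated groups overlapped in 1450016_at. None of these further bright probe sets was called between stimulated genotypes. With the same adjustment over all probe sets, the probe set used for Ccng1 was not called either (adjusted p = 0.0699). That used for Cdkn1a was still called (adjusted p = 0.0241). Dim probe sets gave smaller differences. The second Trp53inp1 probe set, at the 39.7 percentile of mean signal, gave -0.31 between stimulated genotypes (adjusted p = 0.226 over all probe sets) and fell by 0.75 in Nos2-/- and by 0.80 in WT BMDMs. The second Plk2 probe set, at the 24.2 percentile, gave 0.07, and the third Mdm2 probe set, at the 33.8 percentile, gave 0.05; neither was called in any comparison. Where all probe sets of a gene were averaged, the stimulated genotype difference was -0.72 for Trp53inp1 and -0.49 for Plk2, and both were still called.

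**Figure D4:**
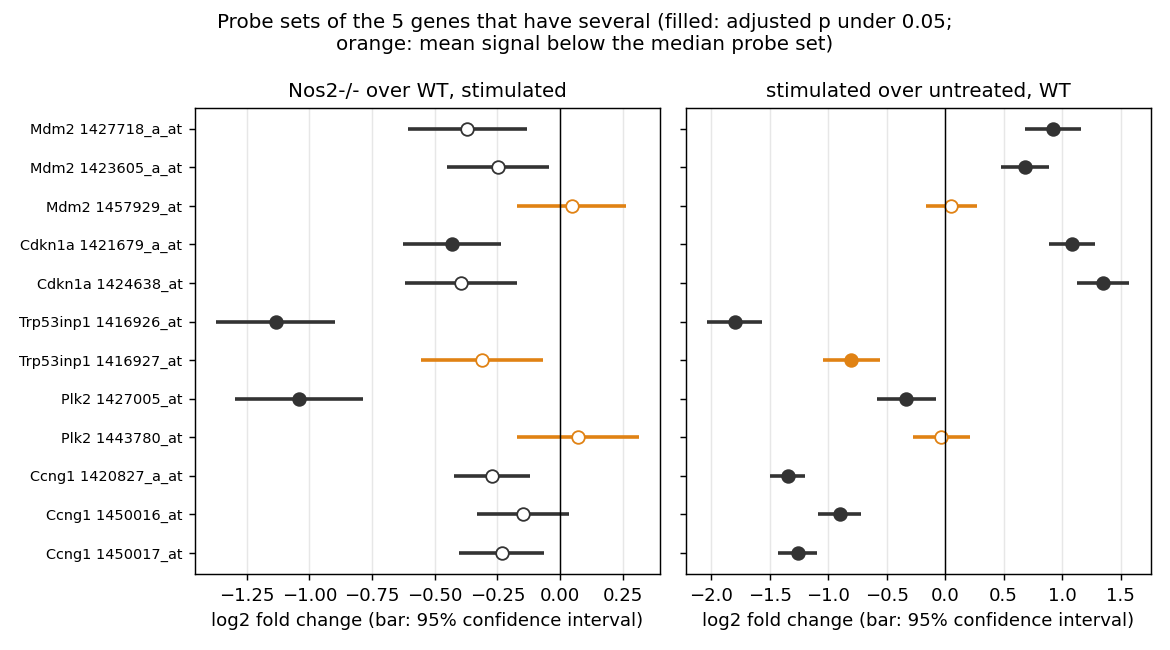
Log2 fold change (x axes, 95% confidence intervals as lines) of the 12 probe sets of the 5 genes with several, in stimulated Nos2-/- over stimulated WT BMDMs (left) and stimulated over untreated WT BMDMs (right); filled points passed an adjusted p of 0.05 over 45037 probe sets. The 3 probe sets in orange had a mean signal below the median probe set, and the intervals of 2 of them, for Mdm2 and Plk2, include 0 in both panels.

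Transcripts of 13 of 22 measured regulators of p53 fell with stimulation in each genotype (59.1%), and 7 rose in Nos2-/- (31.8%) and 4 in WT BMDMs (18.2%). Over all genes, 28.2% fell and 26.3% rose in Nos2-/- BMDMs and 28.4% fell and 29.6% rose in WT BMDMs, and the counts of the following lists stand beside the same shares. The checkpoint kinases, which phosphorylate p53 after DNA damage, were among the strongest falls. Log2 fold changes in Nos2-/- and WT BMDMs were -2.64 and -2.57 for Chek1, -2.11 and -2.19 for Atr, -1.83 and -1.71 for Atm, and -1.83 and -1.61 for Chek2. Over the alternative fits the smallest falls in Nos2-/- and WT BMDMs were -1.35 and -1.42 for Chek1 and -1.03 and -0.98 for Atr. Daxx, a nuclear adaptor that binds Mdm2, rose by 1.79 in Nos2-/- and 1.54 in WT BMDMs. Mdm4, the partner of Mdm2 in holding p53 down, rose by 0.38 in Nos2-/- and 0.30 in WT BMDMs. Over the alternative fits its rise ran from 0.35 to 1.28 in Nos2-/- and from 0.25 to 1.34 in WT BMDMs. Between stimulated genotypes 1 regulator was called, Crebbp, an acetyltransferase that acts on p53, which was higher in Nos2-/- by 0.28 (adjusted p = 0.0242). The call for Crebbp was lost in 5 of 12 fits without 1 array, each of them a stimulated array, with adjusted p of 0.0528 to 0.0772.

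Other known p53 targets that restrain growth moved widely and in opposite directions. Of 9 measured, 4 rose and 2 fell in Nos2-/- BMDMs and 4 rose and 3 fell in WT BMDMs. Sesn1, a sestrin that restrains the growth kinase mTORC1, fell 40.2-fold in Nos2-/- and 39.8-fold in WT BMDMs (log2 fold changes -5.33 and -5.32). Ddit4, another inhibitor of mTORC1, rose by 3.98 in Nos2-/- and 4.35 in WT BMDMs. Sesn2, the paralog of Sesn1, rose by 0.36 in Nos2-/- (adjusted p = 0.000639) and by 0.61 in WT BMDMs (adjusted p = 4.6e-06). Sesn2 was the 1 gene of this list called between stimulated genotypes, lower in Nos2-/- by -0.47 (95% confidence interval -0.63 to -0.32, adjusted p = 0.00189), and it was called in each of the 12 fits without 1 array.

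Among 12 measured apoptosis genes of the pathway, 5 rose and 4 fell in Nos2-/- BMDMs and 5 rose and 3 fell in WT BMDMs. The falls, 33.3% in Nos2-/- and 25% in WT BMDMs, were near the shares of all genes. The death receptor Fas rose 9.90-fold in Nos2-/- and 8.95-fold in WT BMDMs. Apaf1, the scaffold of the apoptosome, rose by 1.66 in Nos2-/- and by 1.21 in WT BMDMs, and the autophagy regulator Dram1 by 1.28 and 1.41. Siva1 and Ei24, a pair of death-associated proteins, fell, with log2 fold changes of -1.62 in Nos2-/- and -1.26 in WT BMDMs for Siva1 and of -1.20 and -1.19 for Ei24. Apaf1 alone was called between stimulated genotypes, higher in Nos2-/- by 0.32 (adjusted p = 0.0233). That call was lost without stimulated Nos2-/- replicate 3 (adjusted p = 0.0893), stimulated WT replicate 1 (0.0859) or stimulated WT replicate 2 (0.0847). The response of Apaf1 was also larger in Nos2-/- BMDMs, by 0.45, at the edge of the threshold (adjusted p = 0.0495). Only 2 of the 12 fits without 1 array kept it, and the other 10 gave adjusted p of 0.0628 to 0.139.

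The targets in DNA repair and metabolism moved one way. Of 9 measured, 8 fell and 0 rose in each genotype, with medians of -0.84 in Nos2-/- and -0.92 in WT BMDMs. Log2 fold changes in Nos2-/- and WT BMDMs were -2.13 and -2.27 for Lpin1, a phosphatidate phosphatase, -1.35 and -1.36 for Polk, a translesion polymerase, and -1.27 and -1.06 for Xpc, a damage sensor of nucleotide excision repair. None of the 9 was called between stimulated genotypes by limma with or without moderation, with 0 higher and 2 lower at an unadjusted p under 0.05, where 6.72% of all genes were higher and 8.34% lower.

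The partners of p21 mostly fell with stimulation. Of 11 measured cyclins, kinases and Pcna, 2 rose and 8 fell in each genotype. Ccnd2 rose by 2.66 in Nos2-/- and 2.42 in WT BMDMs, and Ccnd3 by 1.61 and 1.43. The smallest rise of Ccnd3 over the alternative fits was 0.65 in Nos2-/- and 0.55 in WT BMDMs. Log2 fold changes in Nos2-/- and WT BMDMs were -4.41 and -3.90 for Ccne2, -2.57 and -2.48 for Cdk6, -2.29 and -2.44 for Ccnd1, and -2.02 and -1.92 for Ccna2. Pcna, the sliding clamp of DNA replication that p21 binds, was called between stimulated genotypes and was lower in Nos2-/- by -0.34 (adjusted p = 0.0186). The Pcna call was lost without stimulated Nos2-/- replicate 3 (adjusted p = 0.0667), stimulated WT replicate 1 (0.0695) or stimulated WT replicate 3 (0.0745).

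Of the paralogs of Trp53 and the 9 targets, all 14 were measured. With stimulation 7 rose and 2 fell in Nos2-/- BMDMs, and 8 rose and 3 fell in WT BMDMs. Between stimulated genotypes 0 were called by limma with or without moderation (1 higher and 2 lower at an unadjusted p under 0.05). Gadd45b rose with Gadd45a and further, by 3.91 in Nos2-/- and 3.89 in WT BMDMs. Gadd45g rose by 0.61 in Nos2-/- and 1.25 in WT BMDMs, and no paralog was called in the difference between responses. Ccng2 rose by 1.12 in Nos2-/- and 0.97 in WT BMDMs, against the fall of Ccng1, and Phlda1 rose by 1.92 and 1.80 against the fall of Phlda3. Cdkn1b, which encodes p27, rose by 0.57 in both genotypes. Over all 76 measured genes of these lists, 24 rose and 37 fell in Nos2-/- BMDMs and 22 rose and 38 fell in WT BMDMs, while 2 were higher (Crebbp and Apaf1) and 2 lower (Sesn2 and Pcna) in Nos2-/- BMDMs after stimulation. These 2 of 76 in each direction (2.63%) stand beside 1.03% of all genes called higher and 1.91% lower. In untreated BMDMs 0 of the 76 were called by limma or in any alternative fit, with 0 higher and 3 lower at an unadjusted p under 0.05 (1.95% and 2.05% of all genes).

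**Figure D5:**
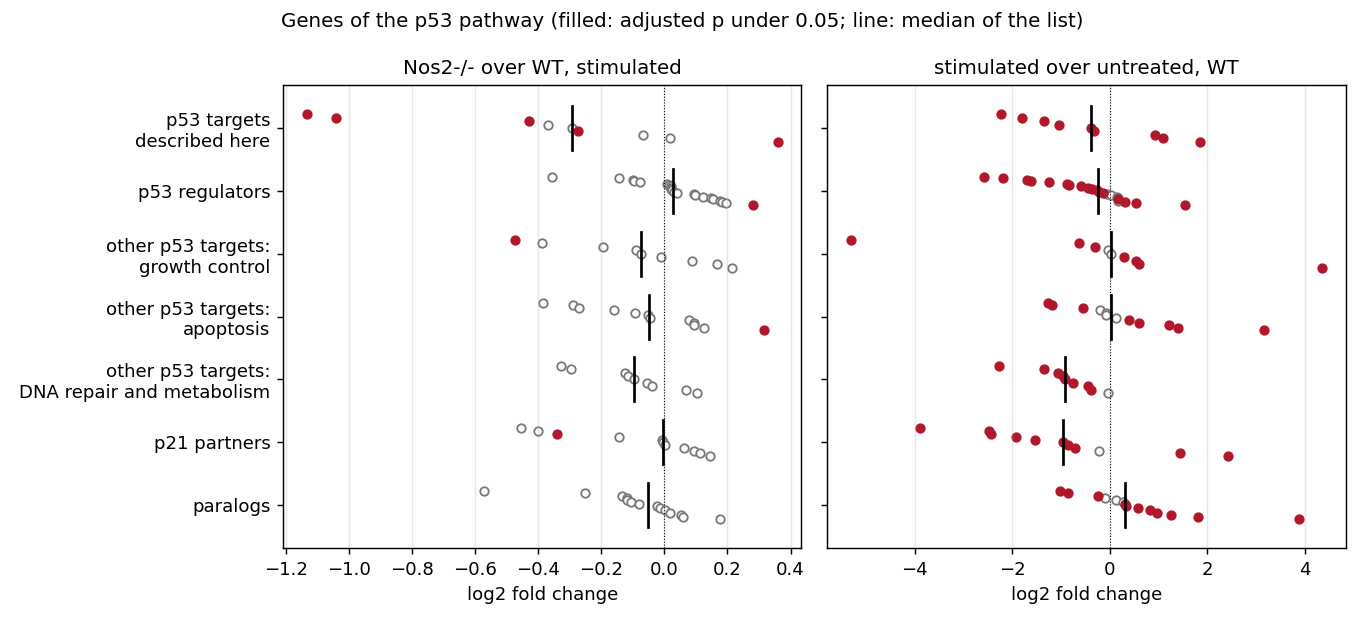
Log2 fold change (x axes) of each measured gene in stimulated Nos2-/- over stimulated WT BMDMs (left) and stimulated over untreated WT BMDMs (right), by list, with the median of each list as a line; filled points passed an adjusted p of 0.05 over all genes. Medians between stimulated genotypes are -0.29 for the 9 p53 targets and lie between -0.10 and 0.03 for the other 6 lists.

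The genes most like Mdm2 and Cdkn1a over the 12 arrays were found by the root mean square difference after each gene was centred on its own mean. For Mdm2 they were Asf1a (0.0841), a histone chaperone, Gla (0.101), a lysosomal galactosidase, and Fzd7 (0.104), a Wnt receptor. For Cdkn1a they were Ubap1 (0.134), a subunit of an endosomal sorting complex, Ahr (0.136), the aryl hydrocarbon receptor, and Pi4k2b (0.139), a phosphatidylinositol kinase. Between stimulated Nos2-/- and stimulated WT BMDMs the log2 difference was -0.49 for Asf1a, -0.35 for Fzd7 and -0.61 for Ubap1. Gla, Ahr and Pi4k2b were not called between these groups, and Fzd7 was called in 8 of 12 fits without 1 array. These are given as a description, since the genes were picked for their likeness over the same arrays, and without _s_at, _x_at and _a_at probe sets Ubap1 had -0.083.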

How the data were processed

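Total RNA from 12 BMDM cultures was hybridised to Affymetrix mouse expression arrays. The authors deposited log2 values normalised by RMA in Partek (version not given in the sources used here), and these were used as deposited. A single table held all 12 arrays and no scan dates were given, so no batch could be tested. Of 45101 probe sets, 64 controls were left out; 34945 name 1 gene, 932 several and 9160 none in the platform annotation. Each of 18193 genes was read from its single-gene probe set of highest mean signal. A linear model with a mean for each of 4 groups was fitted to all 12 arrays with limma 3.58.1 (R 4.3.3; lmFit and eBayes, two-sided; residual df 8, prior df 5.27). Benjamini-Hochberg adjustment ran over all genes, and genes below an adjusted p of 0.05 were called at any fold. The median standard error of a group difference was 0.0859 on the log2 scale, and 3 arrays a group limit the precision. The methods' own analysis of variance used 1.5-fold and a false discovery rate of 0.5, which was tried as an alternative, with a fit to the compared arrays alone, no moderation, an intensity trend, quantile normalization, median centring, a filter on dim features, other choices of probe set, a replicate block and each array left out. The fit was tested on simulated data: between stimulated genotypes it called 86 of 100 genes changed by 0.5 and 100 of 100 changed by 1, and for the difference between responses 40 and 96 of 100; of 17993 unchanged genes it called 11 and 8.

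The labels number the replicates without saying whether equal numbers are paired, and the main fit used no pairing. The genes, pathway lists (regulators of p53, other targets by role, p21 partners, paralogs) and marker lists were chosen with earlier results of these data known, so their counts are descriptions; no test was run over a list. From each list, up to 4 called genes of largest change in each direction and comparison, every paralog and every gene called in the difference between responses could be named. Gdf15, Bax, Fdxr, Gls2, Ccnb1 and Rpl5, as well as Trp53, had no probe set of their own in the annotation and were not analysed here. Promoter windows came from RefSeq (GRCm38.p6); Trp53inp1 and Zmat3 had none.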

Additional observations from a re-analysis of the deposited data

Results flagged for a closer look

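The difference between the genotypes' responses to stimulation passed the threshold for 4 of the named genes, by a test of the difference itself (stimulation response in Nos2-/- minus response in WT, limma, adjusted over all genes). For Plk2 the difference was -0.86 (95% confidence interval -1.23 to -0.50, adjusted p = 0.028), with stimulated Nos2-/- arrays at 8.15, 8.23 and 8.72 and stimulated WT arrays at 9.44, 9.29 and 9.50. For Apaf1 it was 0.45 (adjusted p = 0.0495), and for Ubap1, the gene most like Cdkn1a over the arrays, it was -0.56 (adjusted p = 0.00625). Ubap1 was picked for its pattern over the same arrays, so its value is a description, and without _s_at, _x_at and _a_at probe sets it was -0.20 (adjusted p = 0.662). For the targeted gene Nos2 it was -1.84 (adjusted p = 3.73e-05).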

How the results depend on the processing

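Of 294 counts of called genes under alternatives other than leaving out an array, 251 stayed within 1.5 times the main count, and the cause of the others was not tested. Between stimulated genotypes, the 1 member called higher became 0 without moderation, with only the compared arrays, under the methods' thresholds, with a replicate block and with every probe set tested. The 4 called lower became 2 with only the compared arrays, under the methods' thresholds and without _s_at, _x_at and _a_at probe sets. In the pathway lists, the 2 called higher became 1 with the mean of all probe sets and 0 with only the compared arrays or the methods' thresholds, and the 2 called lower became 6 without dim features, 5 with an intensity trend, 1 with only the compared arrays and 0 under the methods' thresholds. Over the members' 16 probe sets, 0 called higher became 1 without dim features, with the trend and with quantile normalization, and 3 called lower became 5 without dim features and 6 with the trend. For the difference between responses, the 1 member called lower became 2 without dim features, with the trend and under the methods' thresholds, and 0 without moderation and with the mean of all probe sets; the 1 member probe set became 2 with the trend and the methods' thresholds and 0 without moderation and with quantile normalization. The 1 pathway gene called higher became 2 without dim features and with the trend, and 0 with median centring, no moderation, the mean of all probe sets, quantile normalization, the replicate block, the methods' thresholds, without _s_at, _x_at and _a_at probe sets and with every probe set tested; 0 called lower became 1 with the trend and the methods' thresholds. Under the methods' thresholds, pathway genes called higher with stimulation were 12 in Nos2-/- (24 in the main fit) and 14 in WT BMDMs (22).

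Without _s_at, _x_at and _a_at probe sets, Mdm2 was left with its dim probe set and turned to 0.047 between stimulated and 0.090 between untreated genotypes, and Ccng1 turned to 0.032 in the difference between responses; Zmat3 turned to 0.0040 there with median centring. None of these values was called.

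With each of the 12 arrays left out, members called between stimulated genotypes were 0 to 1 higher and 2 to 4 lower, member probe sets 0 to 1 higher and 2 to 5 lower, and pathway genes 0 to 2 higher and 1 to 3 lower. For the difference between responses, members called lower, member probe sets called lower and pathway genes called higher were each 0 to 1. Small uncalled values changed sign: between stimulated genotypes Bbc3 ran from -0.18 to 0.022 and Phlda3 from -0.10 to 0.20, and in the difference between responses Zmat3 ran from -0.18 to 0.071.

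Same-numbered arrays of different groups showed little shared deviation (18 correlations of -0.25 to 0.16, 1 of them over 0.1). Arrays of other numbers gave -0.16 to 0.25. With 3 arrays a group this check cannot exclude shared preparations, and the replicate block was run as an alternative. With the block, 0 members were called higher and 3 lower between stimulated genotypes, and 1 (Plk2) lower in the difference between responses. The block fit lost the calls of Gadd45a (adjusted p = 0.0692) and Ccng1 (adjusted p = 0.0807) between stimulated genotypes. With stimulation in Nos2-/- BMDMs, 6 members were called lower with the block and 5 without it, the added gene being Bbc3 (adjusted p = 0.0494). With 3 arrays a group, differences between responses have a larger error than the responses themselves (for Plk2, SE 0.17 against 0.12).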
